A study of Mus musculus with 6 samples.

Results

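The genes described here are the 5 genes on the mitochondrial chromosome in a table of nascent transcription that covers 14546 mouse protein-coding genes: mt-Nd2, mt-Co1, mt-Nd4, mt-Nd5 and mt-Cytb. The rule that chose them uses their chromosome and no measured value. The libraries were made by PRO-seq, a run-on assay in which engaged RNA polymerases add biotin-labelled nucleotides to the RNA they are making. Its reads are meant to report polymerases at work and not stored RNA, and carry-over of stored RNA was not tested here. The labels describe the input as permeabilized cells, while the methods describe isolated nuclei. How much mitochondrial DNA and RNA the input held is therefore not known, and the levels and shares of mitochondrial genes below are those of these preparations. The cells were proliferating muscle stem cells (MuSCs), cultured from mice that carry Pax7CreERT, a tamoxifen-inducible recombinase driven by the Pax7 promoter. The 3 Ctrl libraries had the genotype Pax7CreERT/Suv4-20h1WT and the 3 Kmt5b sKO libraries Pax7CreERT/Suv4-20h1KO, where Suv4-20h1 is an older name of Kmt5b, a histone H4 lysine 20 methyltransferase. Both groups therefore carried the recombinase and differed in Kmt5b. The paper names 3 biological replicates for PRO-seq. The labels do not say whether the libraries of a group came from separate animals, so p-values measure only the spread between these libraries.

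Mitochondrial DNA is a circle that encodes a small set of respiratory chain subunits together with the ribosomal and transfer RNAs needed to translate them. It is not transcribed by RNA polymerase II but by a dedicated polymerase, POLRMT, with the factors TFAM and TFB2M. Transcription starts in a control region and runs through many genes, and the long transcript is then cut into single RNAs, in large part at the tRNAs that lie between the coding genes. The members thus have no promoters of their own. For a nuclear gene the first 400 nt of the transcript (the TSS region of the table) hold the paused polymerase, whereas for a mitochondrial gene they are the first part of the coding sequence.

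In GRCm38 the mitochondrial chromosome is 16299 nt long and RefSeq lists 13 protein-coding genes on it. The table was limited to isoforms of at least 1000 nt, and 5 of the 13 reach that length. These 5 are the members, with the same starts and ends in the table as in RefSeq. The other 8 are 204 to 957 nt long and are not listed, so the values below do not cover ATP synthase subunits or the remaining subunits of complexes I and IV. All members lie on the plus strand. mt-Nd2 (chrM:3914-4951), mt-Nd4 (chrM:10167-11544) and mt-Nd5 (chrM:11742-13565) encode subunits of complex I, which takes electrons from NADH. mt-Co1 (chrM:5328-6872) encodes the core subunit of complex IV, which passes electrons to oxygen. mt-Cytb (chrM:14145-15288) encodes cytochrome b, the mitochondrially made subunit of complex III.

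The sequences around the members' first codons are given because they are where the TSS region begins. Each holds the 30 bases before and the 30 bases from the start, from RefSeq on GRCm38, plus strand, with the first codon in capitals.

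mt-Nd2, chrM:3884-3943: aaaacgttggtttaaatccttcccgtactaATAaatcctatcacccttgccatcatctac
mt-Co1, chrM:5298-5357: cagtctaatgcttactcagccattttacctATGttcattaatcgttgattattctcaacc
mt-Nd4, chrM:10137-10196: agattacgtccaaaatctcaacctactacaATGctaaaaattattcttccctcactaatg
mt-Nd5, chrM:11712-11771: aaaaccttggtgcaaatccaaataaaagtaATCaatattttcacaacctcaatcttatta
mt-Cytb, chrM:14115-14174: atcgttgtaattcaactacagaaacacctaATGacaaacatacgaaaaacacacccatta

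What lies before each codon is another gene and not a promoter. mt-Nd2 and mt-Nd5 begin directly after a tRNA gene of the same strand, those for methionine and leucine, with a gap of 0 nt. mt-Co1 follows the tyrosine tRNA gene after 1 nt and mt-Cytb the glutamate tRNA gene after 5 nt, and both of those tRNA genes lie on the opposite strand. mt-Nd4 overlaps the end of the gene for subunit 4L by 7 nt, as both are read from 1 RNA.

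Parts of the members also exist as copies in the nuclear genome, and reads that matched several places had been given 1 of them at random. Alignment of the whole mitochondrial chromosome to the nuclear chromosomes gave 45 matches on 15 chromosomes, in and outside the members. Among the longest matches of each member, the closest covered 63.6% of mt-Nd4, including its whole TSS region, at 99.9% identity. It lies at chr1:24611535-24616188 on the minus strand, annotated as a row of unprocessed pseudogenes that includes Gm28439 and Gm10222. A copy at 97.4% identity covered all of mt-Co1 (chr2:22587288-22590534, minus strand, pseudogene Gm13340, inside Myo3a on the strand opposite to it). Another covered all of mt-Cytb at 93.0% identity (chr4:80002330-80005204, plus strand, pseudogene Gm11410). The start of mt-Nd4 printed above occurs in the copy on chromosome 1 with 0 differences, and that of mt-Co1 in the copy on chromosome 2 with 0 differences. The copies of the other starts differ more, by 4 bases for mt-Cytb and by 11 each for mt-Nd2 and mt-Nd5. Those of mt-Cytb and mt-Nd2 are printed to show this, with the differing bases in capitals.

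Copy of mt-Cytb, chr4:80003959-80004018, plus strand: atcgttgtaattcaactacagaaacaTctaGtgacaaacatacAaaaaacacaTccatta
Copy of mt-Nd2, chr4:9959321-9959380, plus strand: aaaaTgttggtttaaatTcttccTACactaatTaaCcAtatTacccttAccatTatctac

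Stretches of 75 nt, the length of a read before trimming, and of 36 nt, as a trimmed or short read would give, were searched, and those with an exact nuclear match are the part that a read of that length could not place. In the TSS region of mt-Nd4 100% of the stretches matched at either length. For mt-Co1 it was 51.5% at 36 nt and 15.0% at 75 nt, for mt-Cytb 6.03% and 0%, and for mt-Nd2 and mt-Nd5 0% at both. In the gene body the shares at 36 and 75 nt were 61.2% and 44.4% for mt-Co1, 46.8% and 44.5% for mt-Nd4, 18.6% and 9.75% for mt-Nd2, 18% and 2.15% for mt-Nd5, and 1.69% and 0% for mt-Cytb. Reads of mt-Nd4 and mt-Co1 could thus have been split with nuclear copies, and the values of these genes are uncertain to that extent, while mt-Cytb was nearly unique. The part of these copies in the order of the levels below was not tested.

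The members had the highest gene body values of the table. The gene body value is TPM, reads per length scaled to a fixed total per library, so that levels of different genes can be set side by side. In the gene body the members held the first 5 places of all listed genes in each of the 6 libraries. The level of mt-Co1 was 45022, 42516 and 44819 TPM in Ctrl 1 to 3 and 34867, 48629 and 31756 TPM in Kmt5b sKO 1 to 3. The highest and the lowest of these 6 values both came from the Kmt5b sKO group, and the groups overlapped.

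For mt-Cytb the Ctrl libraries stood at 33784, 37979 and 57693 TPM and the Kmt5b sKO libraries at 40006, 39800 and 35437 TPM. Ctrl 3 was the highest and Ctrl 1 the lowest, and all Kmt5b sKO values lay between them. For mt-Nd5 the values were 31202, 30582 and 53779 TPM in Ctrl against 34364, 35970 and 33062 TPM in Kmt5b sKO, which again lay within the Ctrl range with Ctrl 3 on top.

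For mt-Nd2 the values were 34736, 28691 and 38033 TPM in Ctrl against 29471, 38035 and 20552 TPM in Kmt5b sKO. Kmt5b sKO 2 was level with Ctrl 3, and Kmt5b sKO 3 was the lowest. The lowest member in every library was mt-Nd4, with 18516, 20191 and 28968 TPM in Ctrl against 19393, 21039 and 15367 TPM in Kmt5b sKO. Across the 6 libraries the highest value of a member was between 1.53 (mt-Co1) and 1.89 (mt-Nd4) times its lowest.

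**Figure D1:**
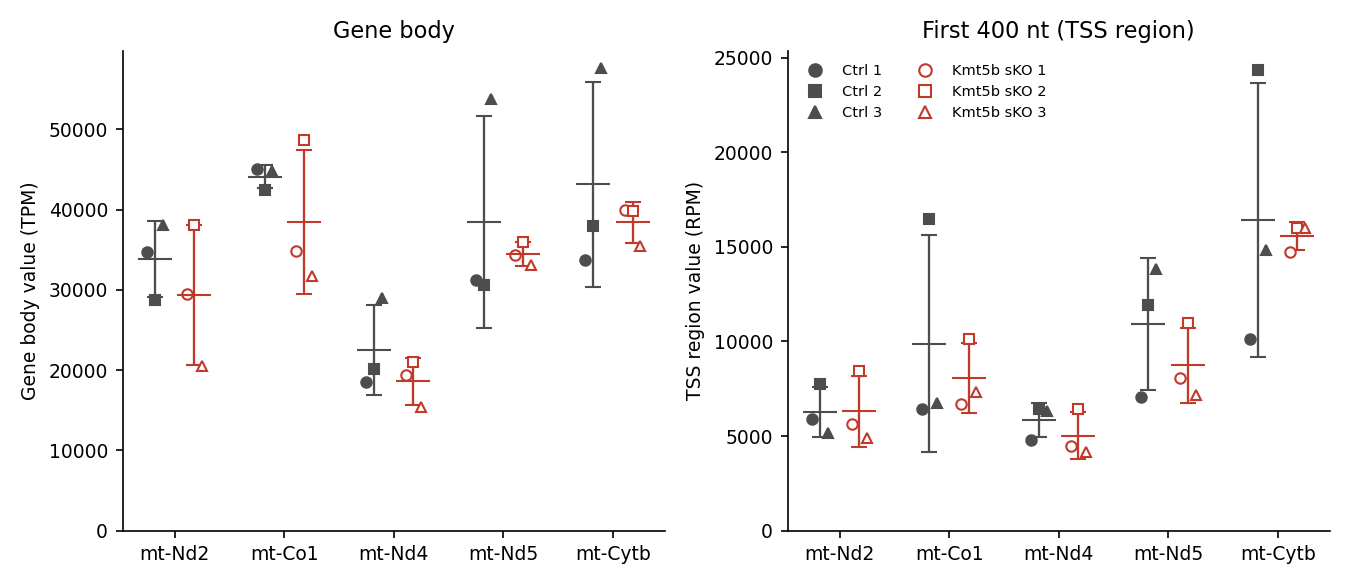
Gene body values in TPM (left) and TSS region values in RPM (right) of the 5 members, in their order along the mitochondrial chromosome; filled grey symbols are Ctrl libraries, open red symbols Kmt5b sKO libraries, and bars give the mean and SD of 3 libraries. The groups overlap for each member in both regions, and mt-Nd4 is lowest in the gene body.

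By their medians over the 6 libraries the members ranked mt-Co1 (43667 TPM), mt-Cytb (38890 TPM), mt-Nd5 (33713 TPM), mt-Nd2 (32104 TPM) and mt-Nd4 (19792 TPM). All 10 pairs were compared within libraries by a two-sided exact sign-flip permutation test, for which 6 libraries allow no p below 0.03125. mt-Co1 was higher than mt-Cytb in 3 of 6 libraries (exact p = 0.844), so these neighbours did not differ beyond their spread. mt-Cytb exceeded mt-Nd5 in 6 of 6 libraries, 1.12-fold on average (exact p = 0.03125, adjusted over the 10 pairs p = 0.0521). mt-Nd5 was above mt-Nd2 in 4 of 6 libraries (exact p = 0.219), again within their spread. mt-Nd2 was 1.53-fold above mt-Nd4 on average and higher in 6 of 6 libraries (exact p = 0.03125, adjusted p = 0.0521). The levels did not fall along the chromosome, as mt-Cytb, the last member in the direction of transcription, lay above mt-Nd2, the first, in 5 of 6 libraries (1.30-fold on average, exact p = 0.0625, adjusted p = 0.0893).

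The distance to nuclear genes was large. The highest nuclear gene of the gene body was Hist1h3f, a replication-dependent histone gene, in 4 libraries and Lars2, the mitochondrial leucyl-tRNA synthetase, in the other 2, which were Kmt5b sKO 1 and 3. Its level ranged from 3048 to 12964 TPM. Even mt-Nd4 exceeded it by 2.06-fold in Ctrl 1 to 6.36-fold in Kmt5b sKO 1. The median member stood 926-fold in Ctrl 2 to 1774-fold in Ctrl 3 above the median of the tested nuclear subunits of oxidative phosphorylation (OXPHOS, the respiratory chain and ATP synthase), which was 25.3 to 34.0 TPM. It was higher in 6 of 6 libraries (two-sided exact sign-flip test, p = 0.03125, the smallest that 6 libraries can give). This ratio did not differ between the groups beyond their spread (difference of -0.12 on the log2 scale, exact permutation p = 0.9). The assay is meant to count polymerases per gene, and a cell holds many copies of mitochondrial DNA for each nuclear gene. Templates, activity per template and any carry-over of stored RNA therefore cannot be told apart here.

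Together the members held 28.3%, 28.1% and 36.9% of the summed gene body TPM in Ctrl 1 to 3 and 28.4%, 31.9% and 24.9% in Kmt5b sKO 1 to 3. The means were 31.1% ± 5.02 (SD, n = 3) in Ctrl and 28.4% ± 3.48 (SD, n = 3) in Kmt5b sKO. Ctrl 3 was the highest and Kmt5b sKO 3 the lowest, and the groups overlapped (log2 ratio -0.13, two-sided exact permutation test p = 0.6, where 3 against 3 libraries cannot go below 0.1). Without Ctrl 3 the log2 ratio was 0.0019.

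The same members made up a far smaller part of the reads. Whole read numbers could be worked back from the smallest steps between values, and in the gene body the members accounted for 118671 reads in Kmt5b sKO 2 to 318944 in Ctrl 3, which was 1.14% to 2.24% of the gene body reads. TPM divides by length, and the members are short beside nuclear genes. As TPM is scaled to a fixed total, a higher share of the members leaves less for the nuclear genes. The median of the tested nuclear genes was 15.95, 16.69 and 14.27 TPM in Ctrl 1 to 3 and 15.85, 15.35 and 15.52 TPM in Kmt5b sKO 1 to 3. Ctrl 3, with the highest member share, had the lowest median, but Kmt5b sKO 3, with the lowest share, did not have the highest.

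**Figure D2:**
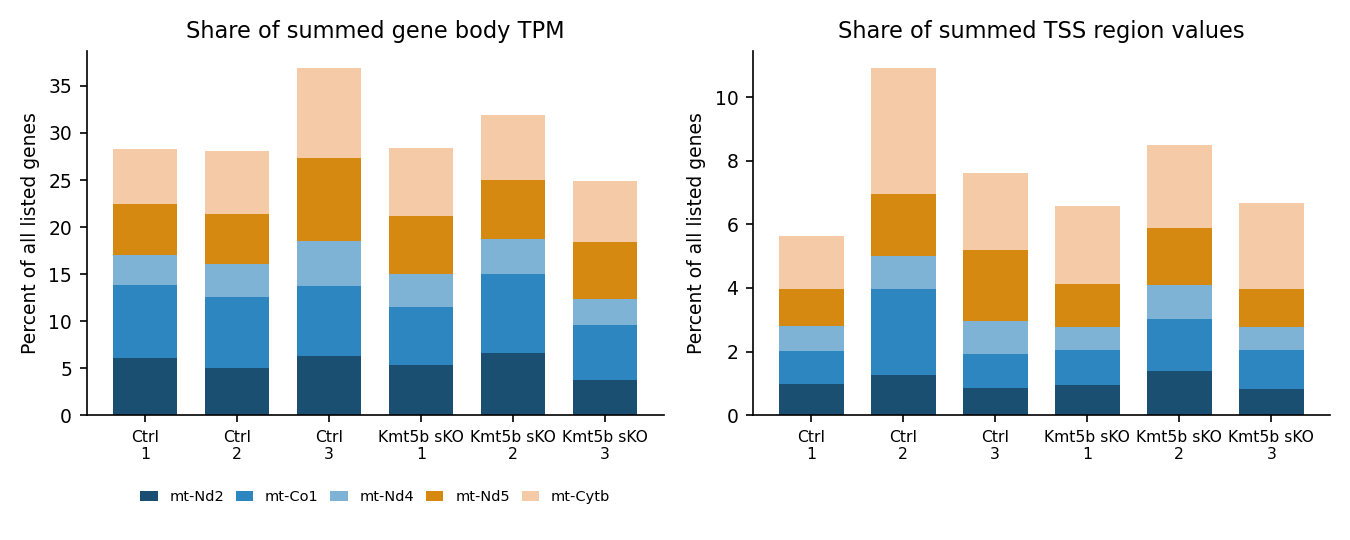
Percent of the summed gene body TPM (left) and of the summed TSS region values (right) of all listed genes that each member held in each library, as bars stacked from 0. The gene body total runs from 24.9% in Kmt5b sKO 3 to 36.9% in Ctrl 3, and the TSS total from 5.63% in Ctrl 1 to 10.9% in Ctrl 2.

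In the TSS region, where the value is RPM (reads scaled to a fixed total, as all these regions are 400 nt long), the order of the members was different. mt-Cytb led in every library, with 10114, 24342 and 14842 RPM in Ctrl against 14747, 16026 and 16001 RPM in Kmt5b sKO. The Kmt5b sKO values lay close together, while Ctrl 2 was 2.41 times Ctrl 1. mt-Cytb was above each of the other members in 6 of 6 libraries, from 1.63-fold over mt-Nd5 to 2.90-fold over mt-Nd4 (two-sided exact sign-flip test, p = 0.03125 for each pair, adjusted over 10 pairs p = 0.0391).

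mt-Nd5 followed with 7066, 11905 and 13820 RPM in Ctrl against 8088, 10980 and 7177 RPM in Kmt5b sKO. For mt-Co1 the values were 6430, 16493 and 6737 RPM in Ctrl against 6703, 10149 and 7326 RPM in Kmt5b sKO, with Ctrl 2 far above the rest. These genes were not separated from each other (mt-Nd5 higher in 4 of 6 libraries, exact sign-flip p = 0.5).

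For mt-Nd2 the values were 5914, 7730 and 5176 RPM in Ctrl against 5635, 8433 and 4880 RPM in Kmt5b sKO. mt-Nd4 held 4812, 6431 and 6310 RPM in Ctrl against 4473, 6452 and 4156 RPM in Kmt5b sKO. Both genes overlapped between the groups, and Kmt5b sKO 3 was the lowest library for each. mt-Nd2 was above mt-Nd4 in 5 of 6 libraries (exact sign-flip p = 0.125).

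At the start of genes the members stood out less than in the gene body. They held 5.63%, 10.9% and 7.62% of the summed TSS values in Ctrl against 6.57%, 8.50% and 6.67% in Kmt5b sKO (log2 ratio -0.11, two-sided exact permutation test p = 0.8). Ctrl 2 was the highest here, where in the gene body it had the lowest Ctrl share. In Ctrl 1 the histone gene Hist1h1c, at 7389 RPM, was higher than mt-Co1, mt-Nd5, mt-Nd2 and mt-Nd4, and in the other 5 libraries no nuclear gene reached the lowest member. Without Ctrl 2 the log2 ratio of the shares was 0.13.

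The ratio of read density between the first 400 nt and the rest of the gene set the members apart from nuclear genes. The density ratio of mt-Cytb was 2.11, 2.45 and 2.38 in Ctrl against 2.53, 2.33 and 2.57 in Kmt5b sKO, in reads per nt of the TSS region over reads per nt of the gene body. It was the highest of the members in every library. The ratio ranged from 1.03 to 1.35 for mt-Nd2, from 1.01 to 1.48 for mt-Co1, from 1.22 to 2.01 for mt-Nd4 and from 1.24 to 2.37 for mt-Nd5. Reads were thus denser at the start of mt-Cytb than in its body in every library, and by their medians (1.27 and 1.32) mt-Nd2 and mt-Co1 came closest to an even density. At 75 nt, 100% of the stretches in the TSS region of mt-Nd4 had an exact nuclear match, against 44.5% in its gene body. For mt-Co1 it was 15.0% against 44.4%. The ratios of mt-Nd4 and mt-Co1 are uncertain to that extent. The part of the nuclear copies in the order of the ratios was not tested.

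Among the pairs, mt-Cytb was above mt-Co1 by 1.87-fold and above mt-Nd2 by 1.94-fold, in 6 of 6 libraries each (exact sign-flip p = 0.03125, adjusted over 10 pairs p = 0.0625). mt-Co1 and mt-Nd2 were not separated (1.03-fold, exact p = 0.719). In Ctrl 3 the ratio of mt-Nd5 (2.37) came close to that of mt-Cytb (2.38), and in the other 5 libraries it was lower.

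For the median tested nuclear gene the density ratio was 5.5 in Ctrl 2 to 13.8 in Ctrl 3, and for the median nuclear OXPHOS gene 4.79 in Ctrl 2 to 15.7 in Ctrl 3. The median member stood at 1.35 to 2.01. Set against the nuclear OXPHOS median, the members' median was 0.128 to 0.309 times as high and lower in 6 of 6 libraries (two-sided exact sign-flip test, p = 0.03125). Between 7.84% and 18.6% of the nuclear genes had a ratio below that of the highest member. The nuclear medians of Ctrl 2 and Ctrl 3 thus lay at opposite ends, whereas the members' ratios moved less between these libraries.

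**Figure D3:**
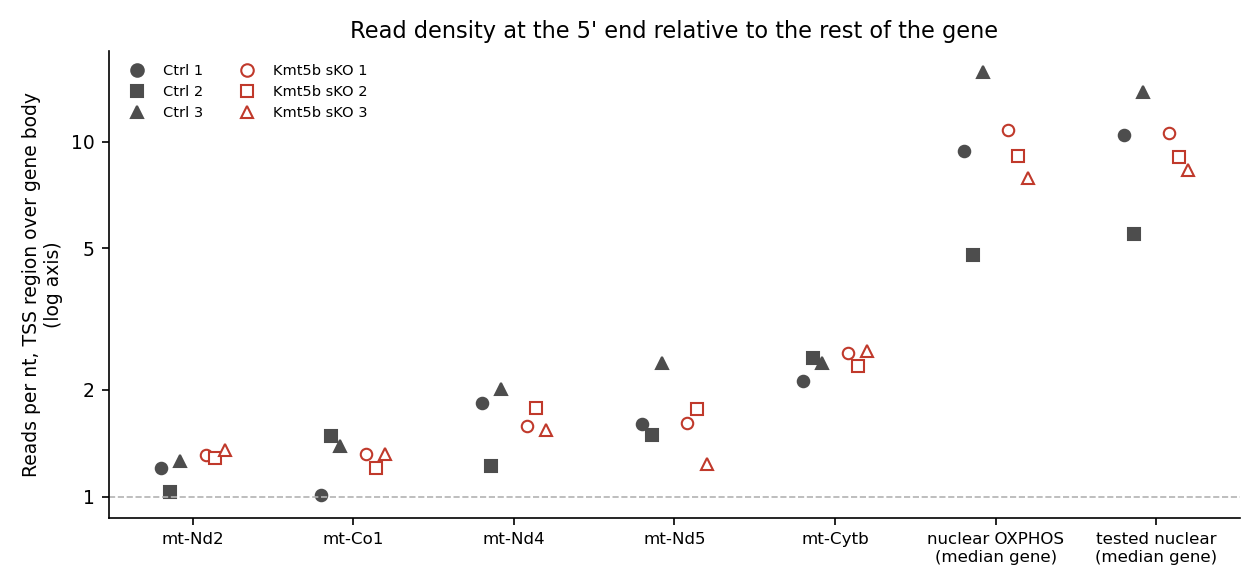
Reads per nt in the first 400 nt over reads per nt in the gene body, on a log axis, for each member and for the median nuclear OXPHOS gene and the median tested nuclear gene; filled grey symbols are Ctrl libraries, open red symbols Kmt5b sKO libraries, and the dashed line marks an even density. All members lie between 1.01 and 2.57, and the nuclear medians between 4.79 and 15.7.

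The genotypes were compared gene by gene with limma over 12451 genes, and a gene counted as called where its p after Benjamini-Hochberg adjustment lay under 0.1. In the gene body 2.99% of the genes tested were called, 200 higher and 172 lower in Kmt5b sKO, and 0 of the 5 members were among them. All 5 members had a lower mean log2 value in Kmt5b sKO, by between 0.11 (mt-Nd5) and 0.26 (mt-Nd4). For mt-Co1 the mean was 44119 ± 1392 TPM (SD, n = 3) in Ctrl and 38418 ± 8979 TPM in Kmt5b sKO, a log2 fold change of -0.22 (SE 0.85, limma adjusted p = 0.942). For mt-Nd4 it was 22558 ± 5614 TPM in Ctrl and 18600 ± 2918 TPM in Kmt5b sKO, a log2 fold change of -0.26 (SE 0.63, limma adjusted p = 0.897). The groups overlapped for 5 of 5 members. Of all genes tested 21.4% did not overlap, and 5 members are too few to be set apart from that share.

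The precision of these differences depended on how the variance was estimated. limma takes a prior variance from genes of like level, and the members lie at the far end of that range. The 95% interval of mt-Co1 ran from -2.22 to 1.77 on the log2 scale with this trend. With 1 prior variance for all genes it ran from -0.66 to 0.21 (SE 0.19, limma adjusted p = 0.648). For mt-Cytb the interval without the trend ran from -0.65 to 0.38, for mt-Nd5 from -0.67 to 0.45, for mt-Nd2 from -0.82 to 0.34 and for mt-Nd4 from -0.78 to 0.25. Each interval includes 0, and changes within these bounds were not detectable with 3 libraries per group. Without Ctrl 3 the sign turned for mt-Cytb, to a log2 fold change of 0.10, and for mt-Nd5, to 0.16.

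In the TSS region 1.66% of the genes tested were called, and 0 of the 5 members were among them. The log2 fold changes were -0.29 for mt-Nd5, -0.23 for mt-Nd4, -0.17 for mt-Co1, -0.01 for mt-Nd2 and 0.02 for mt-Cytb (SE 0.42 to 0.60, limma adjusted p from 0.906 to 0.996). The groups overlapped for 5 of 5 members. Of all genes tested 15.6% did not overlap, a share from which 5 members cannot be set apart. Ctrl 2 set the sign for mt-Co1, whose log2 fold change was 0.27 without it, and the sign for mt-Cytb turned to -0.05 once each library was centred on its median gene.

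**Figure D4:**
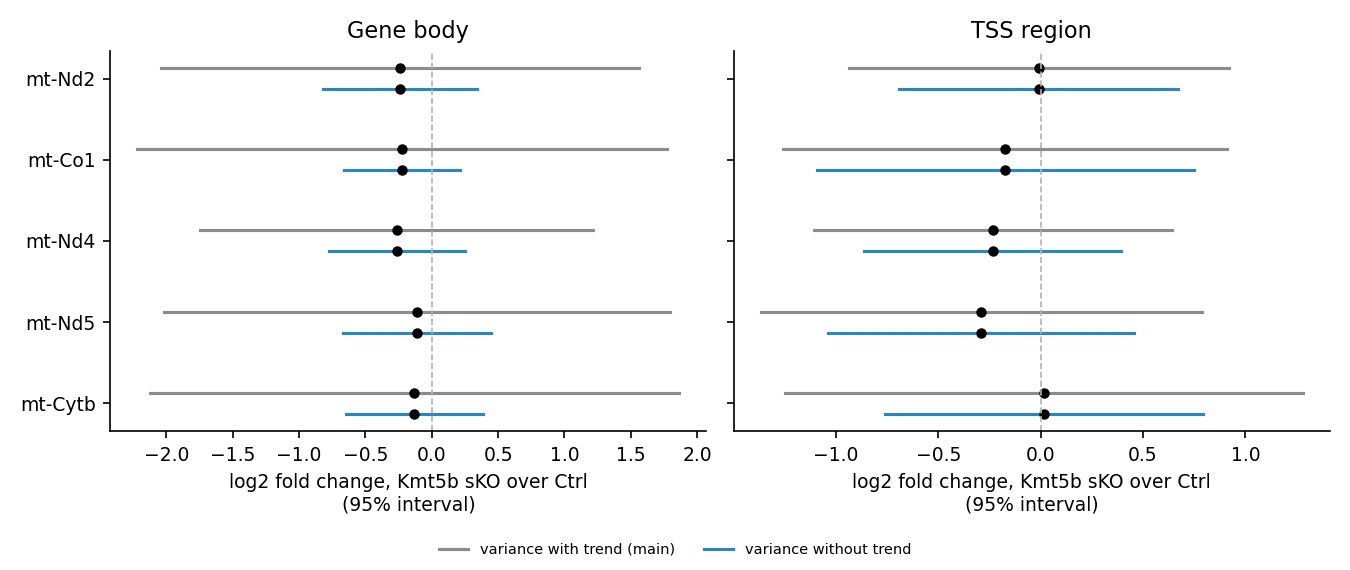
Log2 fold change of each member between Kmt5b sKO and Ctrl in the gene body (left) and the TSS region (right), 3 libraries per group; points are estimates and lines 95% intervals, grey with limma's variance trend and blue without it. Each interval includes 0.

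The ratio of TSS value to gene body value, the measure used as a pausing index for nuclear genes, differed for 0% of the 11698 genes with limma, where 452 had an unadjusted p under 0.05. For the members its log2 change was between -0.18 (mt-Nd5) and 0.23 (mt-Nd2), with a limma adjusted p of 0.9997 for each. The density ratio of mt-Nd2 was 1.2, 1.03 and 1.26 in Ctrl against 1.31, 1.28 and 1.35 in Kmt5b sKO. These groups did not overlap, which gave the smallest p that 3 against 3 libraries allow (exact permutation p = 0.1, adjusted over the 5 members p = 0.5). How many of all genes tested did not overlap in the density ratio was not counted. For gene body values it was 21.4% of them and for TSS values 15.6%, so this lack of overlap cannot be read as setting mt-Nd2 apart. In the deposited values of the TSS region and the gene body the ratio of mt-Nd2 did overlap between the groups.

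The balance among the members, which does not move with the amount of mitochondrial RNA in a library, was also compared. mt-Co1 made up 20.1% to 27.6% of the summed TPM of the members, mt-Cytb 20.7% to 26.0%, mt-Nd5 19.1% to 24.3%, mt-Nd2 15.1% to 21.3% and mt-Nd4 11.3% to 13.0%. The share of mt-Nd4 was thus the steadiest. Relative to the geometric mean of the members, the difference between Kmt5b sKO and Ctrl was between -0.07 (mt-Nd4) and 0.08 (mt-Nd5) on the log2 scale, and the lowest of the 5 exact permutation p-values was 0.4 (adjusted over the members p = 0.9).

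Members did not rise and fall together to the same degree. As a description over the 6 libraries, which share depth and scaling, the log2 gene body values of mt-Cytb and mt-Nd5 had a Pearson correlation of 0.96, the highest of the 10 pairs, and those of mt-Co1 and mt-Nd5 one of 0.26, the lowest. mt-Cytb and mt-Nd5 follow each other among the members along the chromosome, with the unlisted gene ND6 between them on the opposite strand. Both were highest in Ctrl 3, as was mt-Nd4, whereas mt-Co1 was not. The part of their position in the correlation was not tested. Outside mitochondrial DNA, the genes whose gene body values were most like the mean of the members were Slc39a5 (r = 0.99), Usp45 (r = 0.99), Tmem161b (r = 0.99), Dync2h1 (r = 0.98) and Mtap (r = 0.98). These are the highest of the 12446 other genes tested over 6 libraries, and their mean levels, from 3.07 to 37.2 TPM, were far below the members.

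The nuclear genes that serve mitochondrial DNA were read from lists, each set beside all genes tested, for which the median log2 fold change was 0.02. The expression machinery list holds the polymerase, its factors, and the enzymes of RNA processing and of mitochondrial DNA copying. Of its 41 genes 39 were listed and 38 tested, of which 0 were called by limma, against 2.99% of all genes tested. An unadjusted p under 0.05 was reached by 5.26% of them (2 genes), against 15.9% of all genes, and the median log2 fold change was 0.01. POLRMT itself is encoded by Polrmt, with 29.5, 31.6 and 14.6 TPM in Ctrl against 26.3, 26.3 and 24.2 TPM in Kmt5b sKO. Ctrl 3, which had the highest member share, was the lowest of the 6 for Polrmt, and the log2 fold change was 0.10 (limma adjusted p = 0.917). It was -0.25 without Ctrl 3.

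Tfam, which binds and bends the promoters and packs the DNA, had 33.2, 28.1 and 29.3 TPM in Ctrl against 28.3, 21.6 and 29.1 TPM in Kmt5b sKO (log2 fold change -0.20, limma adjusted p = 0.616). Tfb2m, which opens the promoters, was at 15.3 to 17.4 TPM in all 6 libraries (log2 fold change 0.0013). Tefm, the elongation factor, had a mean of 21.7 ± 2.12 TPM (SD, n = 3) in Ctrl and 26.2 ± 2.68 TPM in Kmt5b sKO (log2 fold change 0.27, limma adjusted p = 0.421). Mterf3, named for its relation to a termination factor, changed by 0.10 (limma adjusted p = 0.824). None of these factors passed the test.

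Among the genes of RNA processing and stability, Lrpprc, which with Slirp stabilises mitochondrial mRNAs, had 26.0, 23.3 and 22.7 TPM in Ctrl against 21.4, 19.9 and 20.1 TPM in Kmt5b sKO. Its groups did not overlap, as was so for 21.4% of the genes tested. The difference of Lrpprc did not pass the test (log2 fold change -0.22, limma adjusted p = 0.448). The log2 fold change of Slirp was -0.10, that of Fastkd5, a processing factor for junctions without tRNAs, -0.20, that of Trmt10c, a subunit of the RNase that cuts at the front end of tRNAs, 0.16, and that of Elac2, which cuts at their back end, 0.18. Their limma adjusted p-values were between 0.513 and 0.789. For DNA copying, the helicase gene Twnk and the polymerase gene Polg had log2 fold changes of 0.02 and 0.01. The smallest p of the list belonged to Mgme1, a nuclease that trims mitochondrial DNA ends, with 14.5, 14.8 and 16.6 TPM in Ctrl against 12.8, 9.54 and 11.3 TPM in Kmt5b sKO (log2 fold change -0.44, limma adjusted p = 0.23).

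Of the 19 biogenesis regulators, nuclear factors that drive the production of mitochondria, 19 were tested and 0 called by limma. An unadjusted p under 0.05 was reached by 3 (15.8%), close to the 15.9% of all genes, with a median log2 fold change of -0.07. Prkaa2, the catalytic alpha 2 subunit of the energy sensor AMPK, was nearest to the threshold. It had 3.49, 4.52 and 2.45 TPM in Ctrl against 6.89, 6.65 and 9.18 TPM in Kmt5b sKO, so that all Kmt5b sKO libraries lay above all Ctrl libraries (log2 fold change 1.04, SE 0.24, limma adjusted p = 0.101). Counting tools on the recovered reads placed it past the threshold (edgeR adjusted p = 0.0347, DESeq2 adjusted p = 2.24e-04). Over the 12451 genes tested edgeR called 748 and DESeq2 1295, against 372 with limma. Groups without overlap were seen for 21.4% of the genes tested.

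Ppargc1a, the coactivator PGC-1 alpha, had 1.62, 0.88 and 1.17 TPM in Ctrl against 2.51, 3.95 and 2.39 TPM in Kmt5b sKO, again without overlap (log2 fold change 0.995, SE 0.26, limma adjusted p = 0.132). These values rest on 99 to 277 gene body reads per library, and edgeR gave an adjusted p of 0.0623. Nrf1, a transcription factor of respiratory genes, stayed between 20.8 and 26.9 TPM (log2 fold change -0.18, limma adjusted p = 0.56). Prkaa2 and Ppargc1a are also expressed by mature muscle fibres. The summed level of 8 fibre markers was 387 to 691 TPM in Ctrl and 733 to 1246 TPM in Kmt5b sKO, without overlap. All 8 were listed. Singly, Mb and Tnnt3 did not overlap between the groups, whereas Ckm, Myh1, Myh2, Myh4, Pvalb and Actn3 did. Sums of 3 glial markers did not overlap either, at 8.75 to 9.9 TPM in Ctrl and 14.8 to 23.0 TPM in Kmt5b sKO. Nor did those of 2 listed of 4 endothelial markers, at 1.83 to 2.96 TPM in Ctrl and 3.74 to 4.05 TPM in Kmt5b sKO. Of all single genes tested in the gene body 21.4% did not overlap. The part of these differences in marker sums in any value here was not tested.

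The partners of the members in the respiratory chain were 75 nuclear OXPHOS genes, of which 71 were tested. 1 was called higher and 0 lower in Kmt5b sKO by limma, which is 1.41% of the list against 2.99% of all genes. The median log2 fold change was 0.12, with 53 positive and 18 negative values (74.6% positive, against 53.8% of all genes). The median was -0.03 without Ctrl 3. The called gene was Cox6b2, a testis form of a complex IV subunit (log2 fold change 2.27, SE 0.49, limma adjusted p = 0.0897). Its gene body held only 2, 0 and 1 reads in Ctrl and 6, 3 and 3 reads in Kmt5b sKO, and with edgeR on these reads the adjusted p was 0.203.

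**Figure D5:**
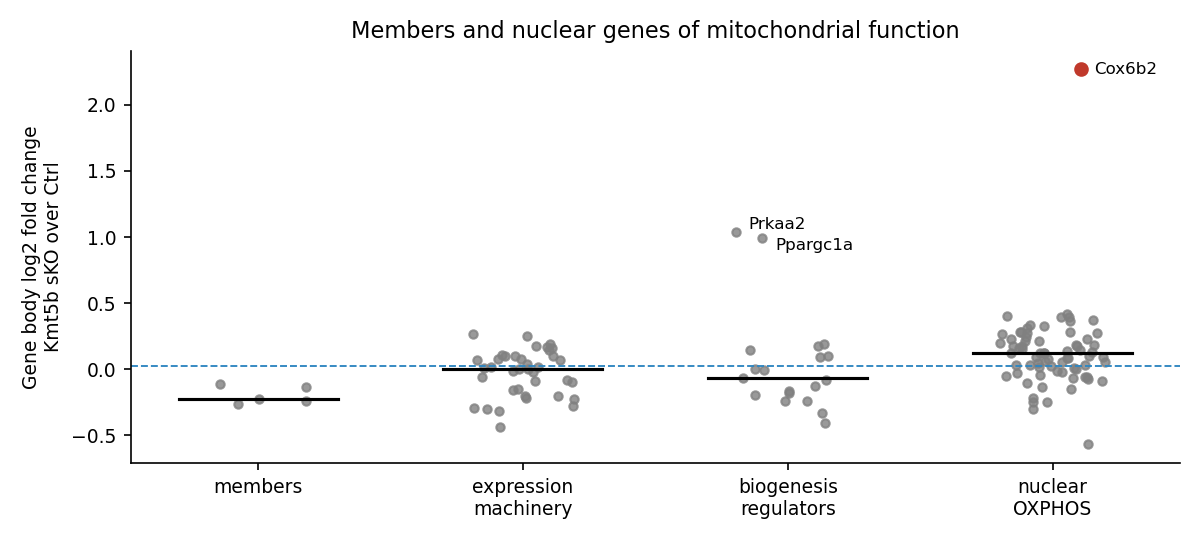
Gene body log2 fold changes between Kmt5b sKO and Ctrl of the 5 members and of the tested genes of 3 nuclear lists (38 expression machinery, 19 biogenesis regulator and 71 OXPHOS genes); each point is a gene, black lines are medians, the red point is the 1 gene called at an adjusted p under 0.1, and the dashed line is the median of all genes tested. The members lie between -0.26 and -0.11.

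The libraries held 926904 to 3246052 reads in the TSS regions and 7425422 to 16249136 in the gene bodies, so that counting error was small for the members, with at least 9035 TSS reads and 12489 gene body reads each. Muscle stem cell markers were all listed, with gene body sums of 1538 to 2282 TPM in Ctrl and 2026 to 2729 TPM in Kmt5b sKO, which overlapped. Among them Myod1 had 855 to 1272 TPM in Ctrl and 1091 to 1328 TPM in Kmt5b sKO. Pax7 had 26.0 to 53.7 TPM in Ctrl and 25.5 to 29.5 TPM in Kmt5b sKO, with its highest value in Ctrl 1. The leukocyte markers Ptprc, Adgre1 and Csf1r were not listed, and the 1 listed of 4 stood at 4.31 to 21.2 TPM in Ctrl and 9.48 to 14.2 TPM in Kmt5b sKO. Pecam1 of endothelium was at 1.42 to 2.73 TPM in Ctrl and 2.93 to 3.04 TPM in Kmt5b sKO. Of 4 fibro-adipogenic markers 2 were listed, with sums of 1.68 to 12.1 TPM in Ctrl and 6.52 to 9.06 TPM in Kmt5b sKO, and Pdgfra among them had 0.49 to 1.06 TPM. Kmt5b had 30.6, 35.4 and 38.5 TPM in Ctrl against 37.8, 35.0 and 42.6 TPM in Kmt5b sKO. The deletion is not visible in these gene body values. The methods do not give the deleted part, and how many reads fell within it was not tested, so the values do not check the deletion. In bulk libraries fewer cells of a type and less RNA per cell cannot be told apart.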

How the data were processed

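The authors trimmed reads with Trimmomatic 0.39 after FastQC 0.11.8, aligned them to GRCm38 (mm10) with STAR 2.6.1d, kept 1 random position for reads with several, removed duplicates with Picard 2.18.16 and counted reads of the correct strand. The gene body values are TPM and the TSS values RPM as the authors deposited them, 1 isoform per gene; their methods name TPM for both. No value column was left unused.

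Genes averaging 0.5 or more in each region, without those of X and Y, were tested as log2(value + 0.5) with limma 3.58.1 (trend) in R 4.3.3, which understates changes of low genes, and tested on simulated data. The start ratio had no pseudocount. Whole reads were recovered for 99.0% or more of the values checked (tolerance 0.005), bodies up to 2000 nt in the gene body, and tested with edgeR 4.0.16 and DESeq2 1.42.0. Single values were tested with exact permutation (scipy 1.17.1). Copies were found with blastn 2.17.0. Named genes were the members, 14 set genes, called list genes up to 5 per list (else the smallest p), the 5 most alike and markers. Members and lists were chosen with earlier results of these data known.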

Additional observations from a re-analysis of the deposited data

How the results depend on the processing

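0 members were called in the gene body, the TSS region or the start ratio under any alternative run. With 1 library left out, the gene body log2 fold changes ranged from -0.41 to -0.10 for mt-Co1, from -0.29 to 0.10 for mt-Cytb, from -0.25 to 0.16 for mt-Nd5, from -0.45 to -0.0048 for mt-Nd2 and from -0.39 to -0.07 for mt-Nd4. In the same order the TSS ranges were -0.41 to 0.27, -0.29 to 0.35, -0.58 to -0.09, -0.24 to 0.16 and -0.43 to -0.11, and those of the start ratio -0.20 to 0.52, -0.11 to 0.55, -0.34 to 0.051, 0.01 to 0.50 and -0.11 to 0.17. The TSS difference of mt-Cytb turned to -0.047 with centring, -0.14 with edgeR and -0.15 with DESeq2, that of mt-Nd2 to 0.00025 when scaled to genes outside mitochondrial DNA, and with centring the start ratio turned to -0.0019 for mt-Co1 and -0.024 for mt-Nd4. The cause of these turns was not tested.

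Left-out libraries moved the log2 ratio of the gene body share between -0.21 and 0.0019 and that of the TSS share between -0.34 and 0.13. In the balance among members they moved mt-Co1 between -0.18 and 0.059, mt-Cytb between -0.020 and 0.14, mt-Nd5 between -0.0022 and 0.19 and mt-Nd2 between -0.15 and 0.073, and TSS values gave -0.15 for mt-Nd5 and 0.13 for mt-Nd2. They moved the median of the machinery list between -0.048 and 0.029, of the regulators between -0.12 and 0.043 and of nuclear OXPHOS genes between -0.03 and 0.19. Polrmt ranged from -0.25 to 0.29, Tfb2m from -0.029 to 0.060, Mterf3 from -0.018 to 0.23, Twnk from -0.15 to 0.13 and Polg from -0.11 to 0.091; Tfb2m was at -0.029 with edgeR and -0.035 with DESeq2, and Polg at -0.019 and -0.026.

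The count of called genes was less stable. In the gene body it was 748 with edgeR and 1295 with DESeq2, against 372, and between 0 (without Ctrl 1 or any 1 Kmt5b sKO library) and 836 (without Ctrl 3) with 1 library left out. In the TSS region, against 207, it was 0 without the filter on low values, 0 without a variance trend, and between 1 (without Ctrl 1) and 408 (without Ctrl 2), with 16, 132 and 46 without Kmt5b sKO 1, 2 and 3. The start ratio gave 1 call with 0.5 added to both values. With the replicate number as a replicate block 0 genes were called in either region (1441 and 1141 with an unadjusted p under 0.05). Same-numbered libraries did not deviate together (correlations -0.15, -0.17 and -0.33). These correlations are tied to each other, as each library was centred on its group of 3, and cannot exclude a shared batch. Whether the numbers mark a pairing is therefore not known. Cox6b2 stayed past the threshold in 7 of 16 alternatives, and Prkaa2 and Ppargc1a passed it in 8 and 2 of 16. The gene body of Cox6b2 held 0 to 6 reads per library, and each member at least 12489.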
